A study of Mus musculus with 2 samples.

Results

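The genes described here encode the respiratory chain and the ATP synthase of the mitochondria, some from the nuclear and some from the mitochondrial genome. Members were all genes of the count tables whose symbols begin as those of complex I (Ndufa, Ndufb, Ndufc, Ndufs, Ndufv), complex III (Uqcr), complex IV (Cox4 to Cox8) or ATP synthase (Atp5), the 4 succinate dehydrogenase genes of complex II (Sdha to Sdhd), and the protein genes of the mitochondrial chromosome, without pseudogenes. They came to 106 of 32285 genes, 93 of them nuclear-encoded and 13 mitochondrially encoded. The nuclear-encoded members comprised 38 complex I genes, 8 complex I assembly factors (Ndufaf, which the rule also takes), 4 of complex II, 8 of complex III, 18 of complex IV and 17 of ATP synthase. The mitochondrial genome contributed 7 genes of complex I, 1 of complex III, 3 of complex IV and 2 of ATP synthase.

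Single-nucleus RNA sequencing had been performed on the thalamus of the operated side from female C57BL/6J mice, 3 months old, 21 days after surgery. The sham group had a burr hole without ablation, and the cortical ablation injury (CAI) group had the sensory-motor cortex removed by suction. Nuclei of 4 mice were pooled per group into 1 library, so no difference between sham and CAI has a replicate check and none was tested. Every interval below is at 95% and covers counting error only: exact Poisson for a level, exact binomial (Clopper-Pearson) for a share and for a ratio of 2 libraries.

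Complexes I to IV pass electrons from NADH and succinate to oxygen. All of them except complex II also pump protons out of the mitochondrial matrix, and ATP synthase uses the returning protons to make ATP. Most subunits are transcribed in the nucleus and imported as proteins, while a small core set is transcribed and translated inside the mitochondrion, so each complex except complex II joins products of both genomes. Nuclear-encoded messages are read in a nucleus preparation before or after splicing. Mitochondrial transcripts are made outside the nucleus, and what reaches the droplets is what the preparation carried along.

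The tables held 16390 sham and 21828 CAI barcodes, with 137850696 and 180106314 unique molecular identifiers (UMIs, counts of captured RNA molecules). After the study's filters 16373 and 21777 nuclei stayed, with a median of 7190 and 6810 UMIs, and 101 barcode sequences occurred in both libraries. Clusters were named from marker genes, and each name stands for "like" that class. Glutamatergic neurons counted 11699 sham and 12218 CAI nuclei, GABAergic neurons 1973 and 3263, oligodendrocytes 1005 and 2320, astrocytes 197 and 509, oligodendrocyte precursors 109 and 165 and microglia 27 and 151. Members were kept out of the genes used for clustering. Of the 27 sham microglial nuclei 55.6% were called doublets, so microglial values are given with that reserve. One CAI cluster of 100 astrocytes had 1 sham nucleus, and 3 neuron clusters with 1 sham and 899 CAI nuclei in all were kept out of the classes.

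To determine the level of both sets in each class, UMIs of the members were summed per class and library and given as counts per 1000000 UMIs of that class (CPM). The nuclear-encoded set was lower in the CAI than in the sham library in all 6 classes, except that microglia were at a log2 ratio of 0.029 when scaled with TMM factors, and the mitochondrial set differed in direction between classes. In glutamatergic neurons the nuclear set had 2070 CPM in sham (2061 to 2079) and 1837 in CAI (1829 to 1844), a log2 ratio of -0.17 (-0.18 to -0.16). In GABAergic neurons it had 2648 CPM (2621 to 2675) and 2340 (2321 to 2360), a log2 ratio of -0.18 (-0.20 to -0.16). Oligodendrocytes went from 2554 CPM (2480 to 2630) to 2013 (1971 to 2056), a log2 ratio of -0.34 (-0.40 to -0.29). Levels in the 2 libraries did not overlap within their intervals in any of these classes.

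Astrocytes had 3152 CPM of the nuclear set in sham (2989 to 3322) and 2446 in CAI (2366 to 2529), a log2 ratio of -0.37 (-0.46 to -0.28). Without the cluster found nearly only in CAI the ratio was -0.28 (-0.37 to -0.18). In oligodendrocyte precursors the levels of 2042 (1889 to 2205) and 1881 CPM (1764 to 2004) overlapped, with a ratio of -0.12 (-0.26 to 0.03). Microglia had 103 sham UMIs of the set against 495 in CAI, at 3215 (2624 to 3899) and 2489 CPM (2274 to 2718), which also overlapped. Their ratio of -0.37 (-0.68 to -0.05) was -0.29 (-0.77 to 0.24) without called doublets.

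The mitochondrial set stood far lower than the nuclear set in neurons and, in oligodendrocytes, below it in sham and close to it in CAI. In glutamatergic neurons it had 198 CPM in sham (196 to 201) and 202 in CAI (199 to 205), a log2 ratio of 0.03 (-0.00 to 0.05), and without called doublets -0.01 (-0.04 to 0.02). GABAergic neurons had 242 (234 to 250) and 255 CPM (249 to 262), a ratio of 0.08 (0.02 to 0.14), and without called doublets 0.05 (-0.01 to 0.12). In oligodendrocytes the level was 1422 CPM in sham (1367 to 1479) and 2069 in CAI (2026 to 2112), a ratio of 0.54 (0.48 to 0.61). Here the nuclear and the mitochondrial set therefore parted, with a nuclear minus mitochondrial log2 difference of -0.88. The corresponding difference was -0.20 in glutamatergic neurons, -0.26 in GABAergic neurons, -0.35 in precursors and -0.997 in microglia, and had the other sign in astrocytes, at 0.07 (-0.14 without the cluster found nearly only in CAI).

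In astrocytes the mitochondrial set was at 776 CPM in sham (696 to 862) and 573 in CAI (534 to 613), a log2 ratio of -0.44 (-0.62 to -0.25). Without the cluster found nearly only in CAI, which stood at 192 CPM, the ratio was -0.13 (-0.32 to 0.05), so that value rests on 100 nuclei. Oligodendrocyte precursors had 582 (502 to 672) and 684 CPM (614 to 760), a ratio of 0.23 (-0.03 to 0.50). Microglia had 27 mitochondrial UMIs in sham and 259 in CAI, a ratio of 0.63 (0.05 to 1.26), and without called doublets 1.05 (0.05 to 2.28).

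**Figure D1:**
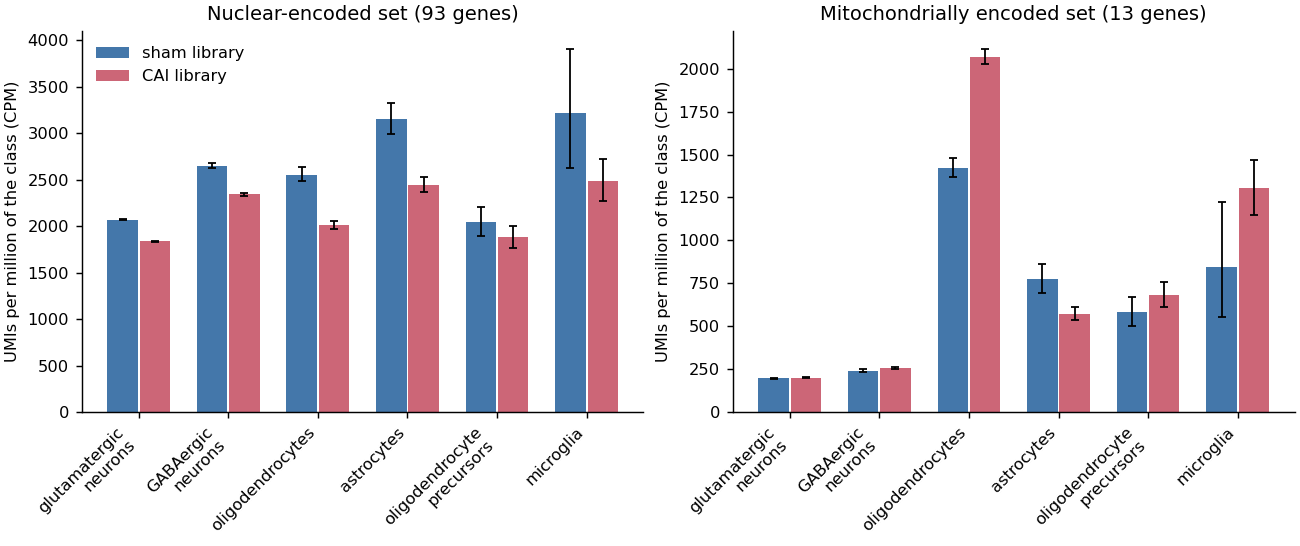
Summed level of the 93 nuclear-encoded (left) and 13 mitochondrially encoded members (right) in CPM of each class. Bars are the sham and the CAI library and error bars 95% Poisson intervals of counting error; the nuclear set is lower in CAI in every class (in microglia not when scaled with TMM factors), while the mitochondrial set of oligodendrocytes goes from 1422 to 2069 CPM.

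Put as a share of all member UMIs, mitochondrial transcripts made up 8.75% in sham glutamatergic neurons (8.64 to 8.86) and 9.91% in CAI (9.79 to 10.03). In GABAergic neurons the share was 8.37% (8.10 to 8.64) and 9.84% (9.61 to 10.08). In oligodendrocytes it was 35.8% (34.6 to 36.9) and 50.7% (49.9 to 51.4), so that in the CAI library the 13 genes gave more UMIs than the 93. Astrocytes had 19.7% (17.9 to 21.7) and 19.0% (17.8 to 20.2), which overlapped. Oligodendrocyte precursors had 22.2% (19.4 to 25.1) and 26.7% (24.3 to 29.2), which overlapped too, and microglia 20.8% (14.2 to 28.8) and 34.4% (31.0 to 37.9). The share was thus higher in CAI, with intervals apart, in both neuron classes, in oligodendrocytes and, on 27 sham UMIs, in microglia.

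The filter on nuclei with more than 2% mitochondrial UMIs acts on this measure. It took out 9 sham and 30 CAI barcodes, of which 8 and 28 were most like oligodendrocytes, and with those included the oligodendrocyte share was 38.3% and 52.9%. With a limit of 1% it was 32.9% and 44.4%, and the log2 ratio of the mitochondrial set was 0.36. The mitochondrial UMIs of oligodendrocytes were unevenly spread: the 10% of nuclei with the most held 52.4% of them in sham and 49.1% in CAI, against 38.9% and 38.6% in glutamatergic neurons. The median oligodendrocyte nucleus had a mitochondrial share of 0.0600% in sham and 0.0988% in CAI, and the 90th percentile was 0.454% and 0.629%. The median count was only 1 mitochondrial UMI in sham and 2 in CAI, and 40.1% and 28.1% of these nuclei had none. Of 5 neuronal marker genes, all were detected in oligodendrocytes, at a summed 1855 CPM in sham and 2172 in CAI against 21027 and 20833 in glutamatergic neurons, and their part in these results was not tested. Malat1, an RNA that stays in the nucleus, moved against the mitochondrial set, from 62297 CPM in sham (61930 to 62666) to 51778 in CAI (51564 to 51992) in oligodendrocytes. It had 30037 and 29884 CPM in glutamatergic neurons, 28235 and 31863 in GABAergic neurons, 57721 and 55050 in astrocytes, 30417 and 32106 in precursors and 25345 and 20780 in microglia, and its part in the mitochondrial values was not tested. The class held 4 clusters, and the mitochondrial ratio was above 0 in each, from 0.36 (0.11 to 0.61) to 0.61 (0.41 to 0.81), while the nuclear ratio lay between -0.58 and -0.24. Each of the 4 held nuclei of both libraries, the most uneven 178 sham and 682 CAI nuclei. At a finer clustering resolution of 1.0, 3 of 7 oligodendrocyte clusters were mostly of 1 library, with 10 sham and 484 CAI nuclei, 40 and 425, and 258 and 43, so the class is not made up alike in both.

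To describe the nuclear-encoded genes one by one, genes with at least 50 UMIs in a class over both libraries were compared, and a gene was counted as lower or higher from a log2 ratio of 0.25 in size. In glutamatergic neurons 90 of 93 passed the minimum, all but Cox8b, Cox8c and Ndufa4l2. Of these, 47 were lower and 1 was higher in CAI, against 12.3% lower and 14.4% higher of all 19410 genes tested. Their median log2 ratio was -0.27, beside 0.01 for all genes, -0.10 for genes with a span under 10 kb and -0.41 for 83 cytosolic ribosomal protein genes. The interval of the single gene lay below 0 for 62, above 0 for 4 and over 0 for 24. These interval counts were not made over all genes, so nothing particular to the members is read from them.

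In GABAergic neurons 86 passed, 42 lower and 1 higher, with 13% and 16.6% of 15353 genes so called. Their median was -0.23, beside 0.00 for all genes, -0.05 for short genes and -0.46 for ribosomal protein genes. In oligodendrocytes 78 passed, 51 lower and 5 higher, with 24.4% and 19.8% of 9548 genes. The median there was -0.34, beside -0.03, -0.27 and -0.46. In astrocytes 36 passed, 19 lower and 6 higher, with 25.3% and 27.7% of 5880 genes, and a median of -0.32 beside -0.02, -0.30 and -0.60. Without the cluster found nearly only in CAI, 13 of 31 were lower and 6 higher, at a median of -0.22. Shares of all genes were not recomputed there. Single-gene intervals lay below 0 for 42, above 0 for 2 and over 0 for 42 in GABAergic neurons. These counts were 28, 0 and 50 in oligodendrocytes and 4, 1 and 31 in astrocytes, and were not made over all genes. Among all genes with a span under 10 kb, 1582 of 5540 were lower in glutamatergic and 1004 of 3642 in GABAergic neurons. In oligodendrocytes 757 of 1488 such short genes were lower, and in astrocytes 174 of 342. Of the 78 members that passed in both neuron classes and oligodendrocytes, 26 were lower in all 3, or 33.3%. Among the 9304 genes that passed in the same 3 it was 3.48%. The share among short genes or ribosomal protein genes was not counted, so the excess is not read as particular to the members. Only Atp5c1, Uqcrc1 and Uqcrc2 had ratios above 0 in all 3. In oligodendrocytes none of these genes had an interval above 0 (Uqcrc1 -0.17 to 0.92). In GABAergic neurons only 2 of 86 members had an interval above 0, Cox7b2 among them. Genes above 0 in all 3 were not counted over all genes. The 3 classes come from the same pair of libraries and are not independent of each other.

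By complex, the members did not move alike. The counts by complex stand beside 12.3% lower and 14.4% higher of all genes in glutamatergic neurons. The groups also differed in gene span. Cox7c, Cox4i1 and Cox7b, with the most UMIs in complex IV, span 2089, 5986 and 6751 bases. Sdha, Sdhb and Sdhc of complex II span 28027, 17991 and 23439. The part of span in the values by complex was not tested. In glutamatergic neurons the summed complex IV genes went from 364 to 285 CPM, a log2 ratio of -0.35 (-0.37 to -0.33), with 12 of 16 tested genes lower and Cox4i2 higher. Complex I went from 751 to 660 CPM at -0.19 (-0.20 to -0.17), with 20 of 37 lower and 0 higher. The sum of complex III was at -0.11 (-0.14 to -0.07), while 6 of its 8 genes were lower, Uqcrc1 and Uqcrc2 being above 0. ATP synthase was at -0.11 (-0.13 to -0.10) with 7 of 17 lower, the assembly factors at -0.10 (-0.13 to -0.07) with 2 of 8 lower, and complex II at -0.05 (-0.08 to -0.02) with 0 of 4.

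Complex IV also stood lowest of the nuclear groups in GABAergic neurons, at -0.35 (-0.40 to -0.30), and in oligodendrocytes, at -0.60 (-0.72 to -0.47). In astrocytes it was lowest too, at -0.59 (-0.81 to -0.37), with complex I at -0.43 (-0.57 to -0.28). The astrocyte values here and by span below include the cluster found nearly only in CAI. In oligodendrocytes all 11 tested nuclear genes of complex IV were lower, from 492 to 326 CPM summed, against 24.4% of all genes. Of all genes with a span under 10 kb, 757 of 1488 were lower there. The 3 mitochondrial genes of complex IV were higher, from 784 to 1027 CPM, a ratio of 0.39 (0.30 to 0.48). Complex I showed the same split, with the nuclear genes at -0.29 (-0.37 to -0.20) and the 7 mitochondrial genes at 0.81 (0.68 to 0.96). In glutamatergic neurons the split held for complex I, whose mitochondrial genes were at 0.41 (0.35 to 0.46). It also held for complex III, whose mitochondrial gene was at 0.29 (0.18 to 0.40), and for ATP synthase, at 0.26 (0.18 to 0.35). It did not hold for complex IV, whose mitochondrial genes were at -0.20 (-0.24 to -0.17).

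The catalytic and structural genes with the most UMIs per complex gave the following values in glutamatergic neurons. Ndufs4, an accessory subunit of complex I mutated in Leigh syndrome, had 113 CPM in sham and 114 in CAI, a log2 ratio of 0.02 (-0.02 to 0.05). Ndufa10 had 68.5 and 61.0 CPM, at -0.17 (-0.22 to -0.12), and Ndufs1, the largest subunit of the electron input arm, 62.0 and 57.5 CPM, at -0.11 (-0.16 to -0.06). None of these 3 reached the size counted. Among the assembly factors Ndufaf7, a methyltransferase, had 57.2 and 58.1 CPM, Ndufaf2 44.6 and 44.5, and Ndufaf5 43.4 and 45.1, at ratios of 0.02, -0.00 and 0.06. Ndufaf4, singled out after its values were seen, went from 43.1 to 25.9 CPM at -0.73 (-0.80 to -0.67).

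Sdha, the flavoprotein of succinate dehydrogenase, had 77.9 and 75.9 CPM at -0.04 (-0.08 to 0.00), Sdhb, its iron-sulfur subunit, 29.8 and 30.8 at 0.05 (-0.02 to 0.12), and Sdhc, one of the membrane anchors, 25.6 and 22.4 at -0.19 (-0.27 to -0.11). In complex III, the core proteins Uqcrc1 and Uqcrc2 were above sham, with 27.6 and 30.3 CPM at 0.14 (0.07 to 0.21) and 39.4 and 43.7 CPM at 0.15 (0.09 to 0.21). The hinge protein Uqcrh went the other way, from 27.0 to 21.0 CPM at -0.36 (-0.44 to -0.28). The 3 complex IV genes with the most UMIs were all lower: Cox7c went from 59.5 to 45.9 CPM at -0.37 (-0.43 to -0.32), Cox4i1 from 54.5 to 41.8 at -0.38 (-0.44 to -0.33), and Cox7b from 46.3 to 38.4 at -0.27 (-0.33 to -0.21).

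Of the ATP synthase genes, Atp5a1, the catalytic head's alpha subunit, had 78.8 and 76.7 CPM at -0.04 (-0.08 to 0.01), and Atp5f1, of the peripheral stalk, 42.9 and 35.6 CPM at -0.27 (-0.33 to -0.20). Atp5c1, the gamma subunit that turns in the head, was higher, with 57.2 and 63.1 CPM at 0.14 (0.09 to 0.19). Atp5c1 and Uqcrh have named pseudogenes in the annotation, so reads could be split between copies. Of the genes with the most UMIs per complex, Ndufa10, Ndufs1, Ndufaf2, Sdha, Uqcrc2, Uqcrh, Cox7c, Cox4i1, Atp5a1, Atp5f1 and Atp5c1 overlap another annotated gene, and whether counting used strand is not given in the sources used here.

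The lowest ratios in glutamatergic neurons were those of genes under 10 kb. Atp5e, the epsilon subunit of ATP synthase (chr2:174461072-174464105, minus strand, GRCm38), had 4.99 CPM in sham and 2.58 in CAI, a log2 ratio of -0.95 (-1.16 to -0.74). Cox6a2, the heart and muscle form of a complex IV subunit (chr7:128205435-128206387, minus strand, overlapping Itgad), had 272 sham and 155 CAI UMIs at -0.92 (-1.22 to -0.63). Ndufa13 of complex I, also known as Grim19 (chr8:69894180-69902558, minus strand, overlapping Yjefn3 and Tssk6), went from 11.9 to 6.42 CPM at -0.88 (-1.02 to -0.75). Cox6b2, the testis form of a complex IV subunit, had 77 and 47 UMIs at -0.82 (-1.38 to -0.28). Ratios above 0 were smaller beside these. Ndufa9 of complex I (chr6:126821721-126849136, minus strand) went from 14.0 to 16.1 CPM at 0.20 (0.10 to 0.30), and Cox4i2, with 26 and 41 UMIs, gave 0.55 with an interval over 0 (-0.20 to 1.31).

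In GABAergic neurons the lowest ratios were those of Uqcr10, a small subunit of complex III, from 10.7 to 5.84 CPM at -0.87 (-1.22 to -0.53), and of Atp5e, from 6.20 to 3.52 CPM at -0.82 (-1.27 to -0.36). Cox7b2 stood highest, with 5.56 and 7.82 CPM at 0.49 (0.10 to 0.89), before Ndufv1, the NADH-binding subunit, at 0.13 (-0.10 to 0.36). In oligodendrocytes Ndufa4 went from 29.4 to 15.4 CPM at -0.93 (-1.47 to -0.38) and Cox5a from 44.1 to 23.5 at -0.91 (-1.35 to -0.46). Ndufc1 at 0.61 (-0.33 to 1.66) and Uqcrc1 at 0.36 (-0.17 to 0.92) had the highest ratios there, on 57 and 162 UMIs, with intervals over 0.

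Astrocytes gave fewer UMIs and wider intervals. Ndufb3 had 23 and 31 UMIs, at -1.26 (-2.08 to -0.41), and Atp5h 22 and 36, at -0.98 (-1.78 to -0.14). Ndufaf5 had 8 and 64 UMIs at 1.31 (0.25 to 2.58), and Uqcrc2 17 and 82 at 0.58 (-0.18 to 1.43). In oligodendrocyte precursors only 5 nuclear members reached 50 UMIs. They lay between -0.22 (-1.06 to 0.65) for Atp5b and 0.64 (-0.15 to 1.49) for Atp5a1, with Ndufs1 at -0.08 and Ndufs4 at 0.27, and no interval kept clear of 0. In microglia no nuclear member reached the minimum.

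In both neuron classes the size of the difference went with the span of the gene from start to end, and less evenly so in glia. The 93 nuclear members had a median span of 7.38 kb, from 0.953 to 155.9 kb, and 62 were under 10 kb, whereas the other genes tested in glutamatergic neurons had a median of 22.3 kb. In glutamatergic neurons the 28 members under 5 kb had a median log2 ratio of -0.46 and 22 of them were lower, against 34.1% of other genes of that span. The 31 from 5 to 10 kb were at -0.27 and the 17 from 10 to 20 kb at -0.18. The 14 of 20 kb or more were at -0.02, with 0 of 14 lower, against 4.18% of other genes of that span. Other genes in the same steps were at -0.13, -0.07, -0.00 and 0.04, so the order was shared and the step in the members larger. Spearman's rho between span and ratio was 0.62 over 90 members and 0.26 over 19290 other genes, as a description across genes.

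Summed over genes, the members under 5 kb went from 343 to 260 CPM in glutamatergic neurons, at -0.40 (-0.42 to -0.38), and those of 20 kb or more from 663 to 657 CPM, at -0.01 (-0.03 to 0.00). GABAergic neurons showed the same pair of values, -0.37 (-0.42 to -0.32) and -0.03 (-0.07 to -0.00), with a rho of 0.53 over 86 members. In oligodendrocytes the pair was -0.50 (-0.63 to -0.38) and -0.15 (-0.25 to -0.05), with a rho of 0.37 over 78 members and 0.33 over other genes. There the other genes under 5 kb were also low, at a median of -0.35. By counts the oligodendrocyte steps were not in order. Under 5 kb 14 of 21 members were lower, against 61.1% of other genes of that span, and from 5 to 10 kb 24 of 28, against 43.6%. From 10 to 20 kb 7 of 16 were lower, against 33.3%. At 20 kb or more still 6 of 13 (46.2%) were lower, against 15.8% of other genes of that span. In GABAergic neurons 2 of 14 members of 20 kb or more were lower, against 6.66% of other genes of that span. In astrocytes only 4 members under 5 kb passed, the medians of the 4 steps were -0.67, -0.37, -0.47 and -0.20, and rho was 0.32 over 36.

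**Figure D2:**
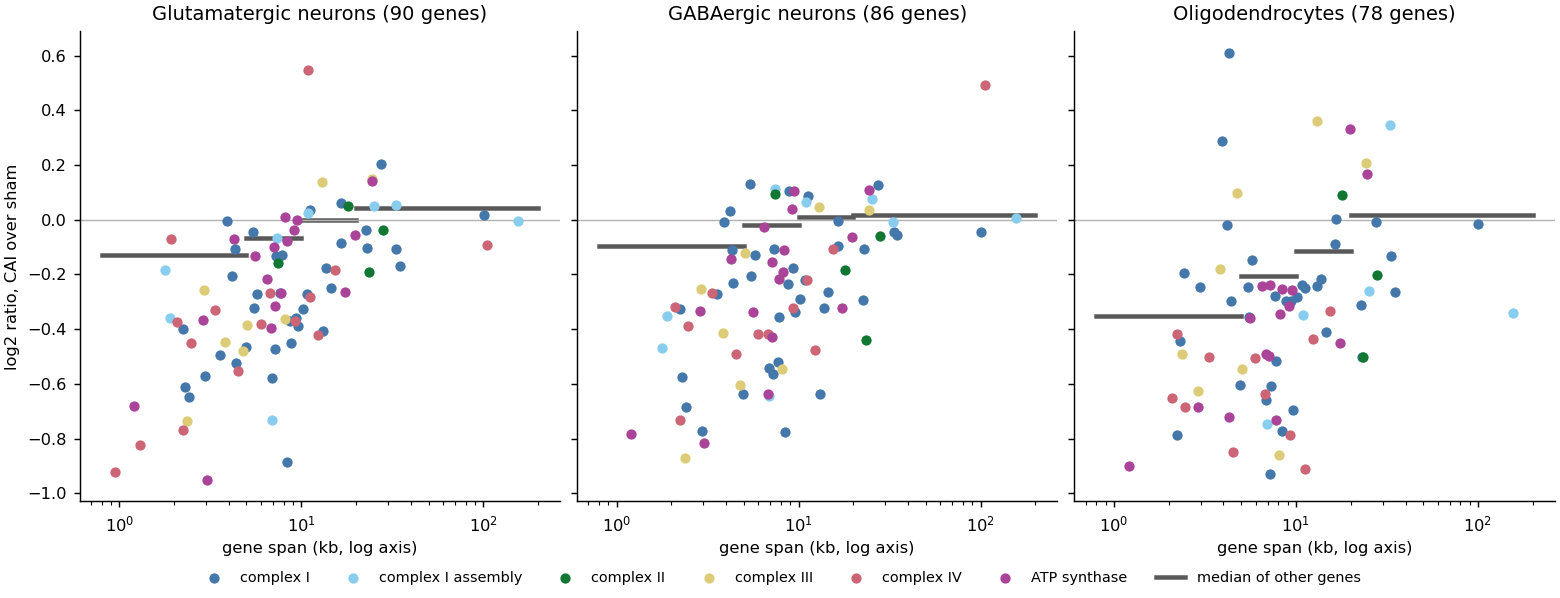
Log2 ratio of CAI over sham for each tested nuclear-encoded member (points, coloured by complex) against its genomic span in kb on a log axis, in 3 classes. Grey bars are the medians of all other tested genes in the same span steps; in glutamatergic neurons the members go from a median of -0.46 under 5 kb to -0.02 at 20 kb or more.

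To see what the members share in sequence, their RefSeq promoters on GRCm38.p6 (250 bases before to 50 after the start) were searched on both strands for CGCATGCG, the core letters bound by NRF1, and for CCGGAAGT, which ETS factors such as GABPA bind. Both factors are textbook regulators of respiratory genes. Of the 93 nuclear members 76 had a promoter in the table. The NRF1 letters, which read the same on both strands, were in 11 of 76 (14.5%), against 2.03% of the 26949 other genes. The ETS letters were in 5 (6.58%) against 4.30%, and 1 gene, Uqcr11, held both. The NRF1 letters were found in 4 ATP synthase, 2 complex I, 2 assembly factor, 2 complex III and 1 complex IV gene. In glutamatergic neurons the 11 genes with the NRF1 letters had a median log2 ratio of -0.33 and the 64 tested genes without them -0.27. A match is a run of letters in this window and is no measure of binding. The upstream parts of the promoters of Cox6a1 (chr5:115348959-115349208, minus strand) and Uqcrh (chr4:116075071-116075320, minus strand) show one of each, with the matched letters in capitals, read 5′ to 3′ up to the base before the start.
Cox6a1: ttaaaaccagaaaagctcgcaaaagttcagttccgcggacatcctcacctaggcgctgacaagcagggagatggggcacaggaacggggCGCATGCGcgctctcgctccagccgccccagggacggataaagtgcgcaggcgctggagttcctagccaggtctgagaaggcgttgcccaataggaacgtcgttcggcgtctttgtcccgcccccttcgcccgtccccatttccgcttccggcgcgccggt
Uqcrh: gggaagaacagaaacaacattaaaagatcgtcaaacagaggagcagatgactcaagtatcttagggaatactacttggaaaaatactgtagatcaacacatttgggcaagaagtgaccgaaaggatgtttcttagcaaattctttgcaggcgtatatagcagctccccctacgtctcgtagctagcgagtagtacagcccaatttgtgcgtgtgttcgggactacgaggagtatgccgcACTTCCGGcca
The NRF1 letters of Cox6a1 begin 161 bases before the start, and the ETS letters of Uqcrh, on the opposite strand, 11 bases before it.

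Some subunits of complex IV exist as paired genes with forms for particular tissues, and here they parted by neuron cluster. Cox7b2, which lies in 105 kb on chromosome 5 (chr5:71442824-71548205, minus strand), had 24.3 CPM in sham and 22.8 in CAI in glutamatergic neurons, a log2 ratio of -0.09 (-0.17 to -0.01). Over the glutamatergic clusters its sham level ran from 1.01 CPM in cluster 7 (led by Chat, Chrna3 and Slc5a7) to 58.3 in cluster 15 (led by Fgf10), where CAI had 1.59 and 44.0. Clusters 12, 10, 4 and 13 had 39.8, 40.3, 41.8 and 44.8 CPM in sham and 40.5, 42.1, 35.6 and 31.9 in CAI. Cox7b, the widely expressed form, lay between 30.1 and 65.2 CPM in sham over the same clusters.

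Cox6b2 had 14.5 CPM in sham (10.1 to 20.1) and 9.81 in CAI (6.35 to 14.5) in cluster 11, led by Pde11a, Kcng4 and Cngb3. In every other neuron cluster of the classes it was at most 2.67 CPM in either library, while Cox6b1 had 19.0 and 10.6 CPM in cluster 11, in the range of the others. Cox6a2 was highest in cluster 2 (led by C6, Snx31 and Usp43), with 6.47 CPM in sham (5.36 to 7.75) and 2.66 in CAI (1.96 to 3.52), followed in sham by cluster 4 (led by Adgrf5) with 4.42 (3.26 to 5.86) and 2.41 (1.63 to 3.41).

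The widely expressed partners were all lower in CAI in glutamatergic neurons: Cox6a1 by a log2 ratio of -0.33 (-0.41 to -0.25), Cox6b1 by -0.37 (-0.47 to -0.27), Cox7a2 by -0.55 (-0.65 to -0.46), Cox8a by -0.45 (-0.53 to -0.38) and Ndufa4, placed with complex I by its symbol and known as a complex IV subunit, by -0.47 (-0.57 to -0.37). Cox7a2l, a factor for joining complexes III and IV, was at -0.18 (-0.28 to -0.09). Cox7a1, the muscle form, had 34 and 35 UMIs, Cox8b 7 and 4, and Ndufa4l2 8 and 10, so nothing is read from their ratios. Cox8c had 0 UMIs in sham, which allows a level of up to 0.0284 CPM (that of 3 UMIs, a one-sided limit), and 1 in CAI.

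**Figure D3:**
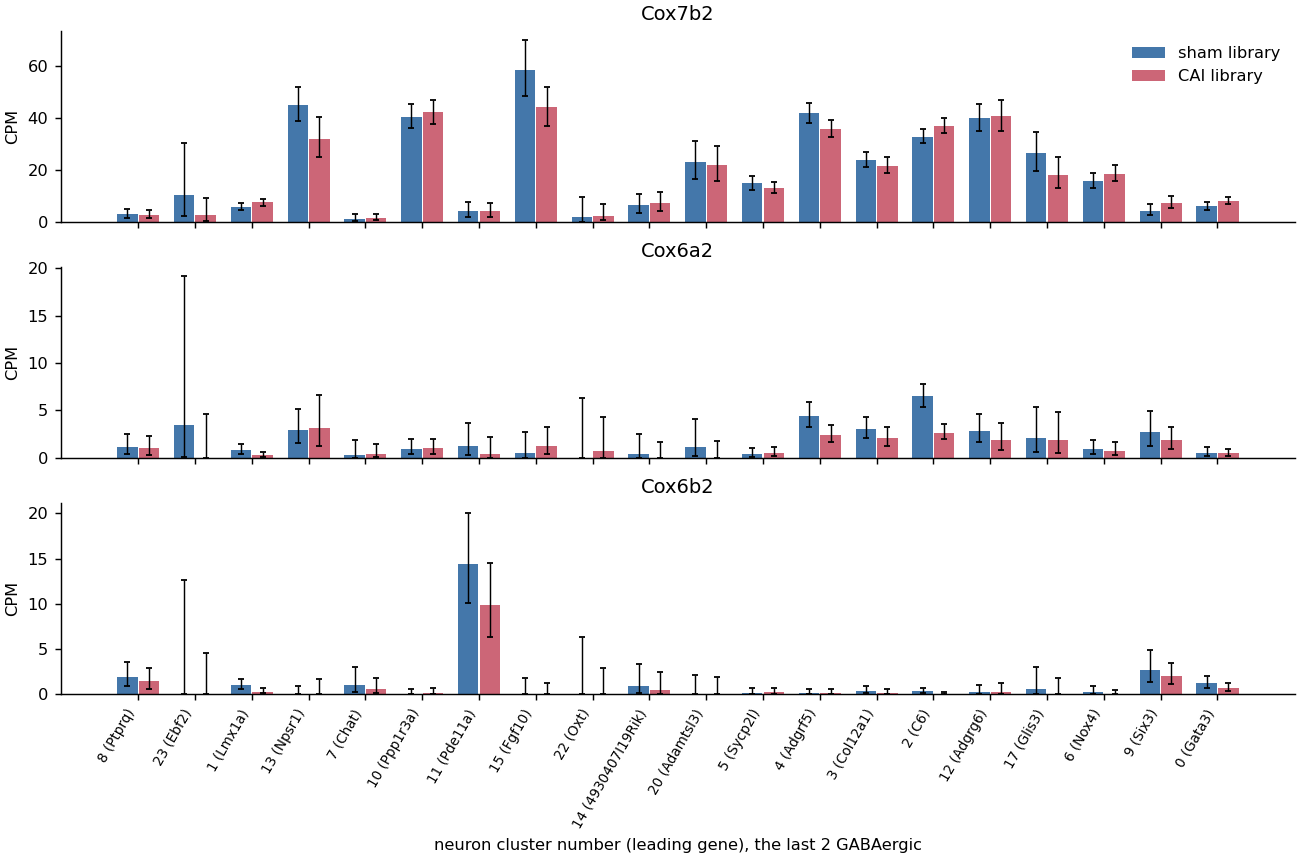
Level in CPM of Cox7b2, Cox6a2 and Cox6b2 in each neuron cluster of the classes, ordered by the sham level of the nuclear set within each class, with 95% Poisson intervals; the last 2 clusters are GABAergic. Cox6b2 stands out in cluster 11 in both libraries and Cox7b2 runs from 1.01 to 58.3 CPM in sham over the glutamatergic clusters.

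The 13 mitochondrial genes did not move as one in neurons. They lie on chromosome M from mt-Nd1 (chrM:2751-3707) to mt-Cytb (chrM:14145-15288), are all read from the same strand except mt-Nd6, and are cut from long shared transcripts. In glutamatergic neurons mt-Co3 went from 59.0 to 46.5 CPM, a log2 ratio of -0.35 (-0.40 to -0.29), and mt-Co2 from 30.7 to 27.2 at -0.17 (-0.24 to -0.10). These 2 genes encode core subunits of complex IV, and the catalytic mt-Co1 had 36.7 and 36.3 CPM at -0.01 (-0.08 to 0.05). mt-Nd3 of complex I was lower too, at 3.61 and 2.63 CPM and -0.46 (-0.68 to -0.24).

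The other 9 were higher in CAI, and each of their intervals lay above 0. Intervals were not counted over all genes, so nothing particular to these genes is read from that. By the size counted, 7 of 13 were higher and 2 lower, beside 14.4% and 12.3% of all genes. mt-Nd2 went from 11.3 to 17.8 CPM at 0.65 (0.55 to 0.76), mt-Nd4 from 9.49 to 12.4 at 0.39 (0.27 to 0.51), and mt-Nd5 from 3.60 to 5.12 at 0.51 (0.32 to 0.70). mt-Cytb, the complex III gene, went from 11.4 to 13.9 CPM at 0.29 (0.18 to 0.40), mt-Nd1 from 10.3 to 11.9 at 0.21 (0.09 to 0.33), and mt-Atp6 from 19.3 to 22.5 at 0.22 (0.14 to 0.31). The genes with few UMIs had the highest ratios: mt-Nd4l at 0.66 (0.38 to 0.94) on 168 and 287 UMIs, mt-Nd6 at 0.92 (0.57 to 1.28) on 100 and 204, and mt-Atp8 at 1.22 (0.79 to 1.67) on 63 and 159.

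In GABAergic neurons mt-Co3 had the lowest ratio, at -0.17 (-0.29 to -0.05), and mt-Nd2 at 0.57, mt-Nd4l at 0.92 and mt-Nd6 at 0.98 were high. In oligodendrocytes all 13 were higher in CAI by the size counted, against 19.8% of the 9548 genes tested there. Their ratios ran from 0.32 (0.14 to 0.50) for mt-Co2 to 1.24 (0.26 to 2.37) for mt-Atp8, with mt-Co3 at 0.43 and mt-Nd2 at 0.90. The 3 complex IV genes had the lowest ratios of the 13 in oligodendrocytes and were among the 4 with ratios below 0 in both neuron classes. As a share of mitochondrial UMIs, mt-Co3 went from 29.7% to 23.0% in glutamatergic neurons, from 28.1% to 23.7% in GABAergic neurons and from 21.6% to 19.95% in oligodendrocytes. The share of mt-Nd2 went from 5.70% to 8.81%, from 6.45% to 9.08% and from 5.57% to 7.16%.

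Of the mitochondrial genes mt-Atp8 and mt-Atp6 share 43 bases (chrM:7927-7969, plus strand), shown here because a UMI from this stretch cannot be given to 1 of them. Capitals mark the start codon of mt-Atp6.
mt-Atp8 end and mt-Atp6 start: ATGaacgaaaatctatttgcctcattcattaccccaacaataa
Likewise mt-Nd4l overlaps mt-Nd4, and mt-Nd5 lies opposite the end of mt-Nd6. The ratios of mt-Atp8, mt-Nd4l and mt-Nd6 could therefore depend on how such UMIs were counted, which was not tested.

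**Figure D4:**
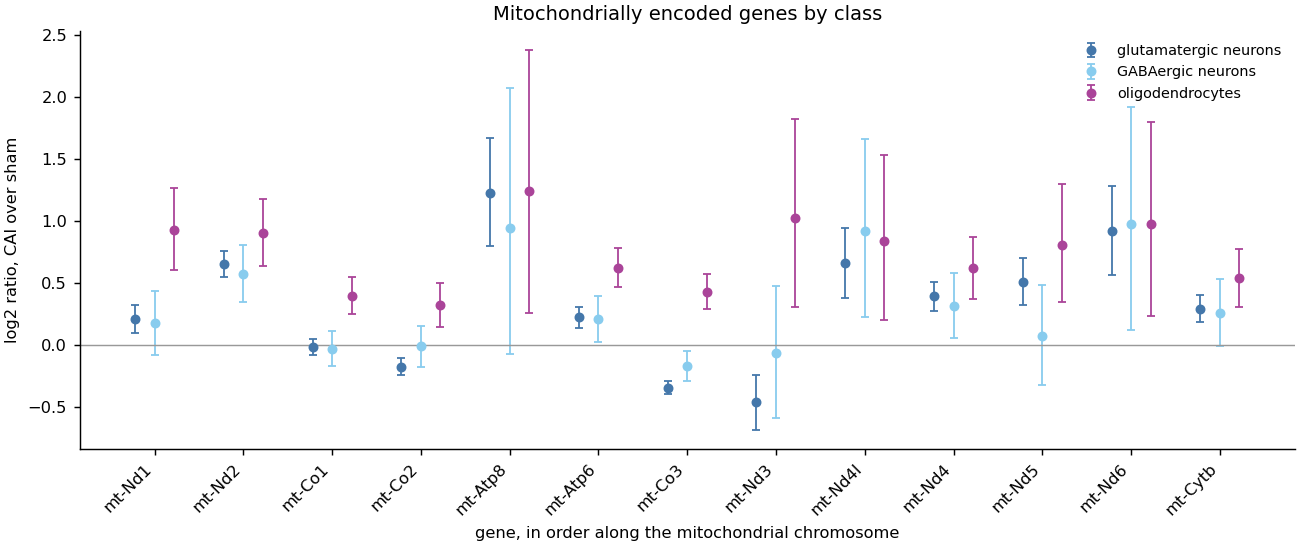
Log2 ratio of CAI over sham for the 13 mitochondrial genes in order along chromosome M, in 3 classes, with 95% counting intervals. In oligodendrocytes all 13 lie above 0, and in both neuron classes mt-Co3 lies below 0 while mt-Nd2 lies above it.

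To see how far the class values hold within clusters, the 18 glutamatergic and 2 GABAergic clusters were described separately. The nuclear set had a log2 ratio below 0 in all 20, and in 16 of 18 glutamatergic clusters the interval lay below 0. The ratios ran from -0.32 in cluster 12 (led by Adgrg6) to -0.01 in cluster 22 (led by Oxt, Sim1 and Avp), and cluster 17 (led by Glis3) stood at -0.03. Among the glutamatergic clusters, sham levels of the nuclear set ran from 1755 CPM in cluster 6 (led by Nox4) to 2438 in cluster 8 (led by Ptprq), and the 2 GABAergic clusters had 2573 and 2854 CPM. Between libraries, the cluster levels had a Spearman's rho of 0.88 over 20 clusters that share the libraries.

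The mitochondrial set behaved otherwise. Its interval lay above 0 in 8 glutamatergic clusters, below 0 in 3 and over 0 in the rest. Cluster 10 (led by Ppp1r3a, Adamts9 and Tspan11) went from 209 to 128 CPM at -0.71 (-0.83 to -0.60), while cluster 23 (led by Ebf2), of 71 sham and 175 CAI nuclei, went from 319 to 797 CPM at 1.32 (1.004 to 1.65). Within a library, clusters with more of the nuclear set also had more of the mitochondrial set, with a rho of 0.75 in sham and 0.81 in CAI. The 2 ratios went together far less, with a rho of 0.14, whereas the nuclear ratio and that of the ribosomal protein genes had a rho of 0.88.

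**Figure D5:**
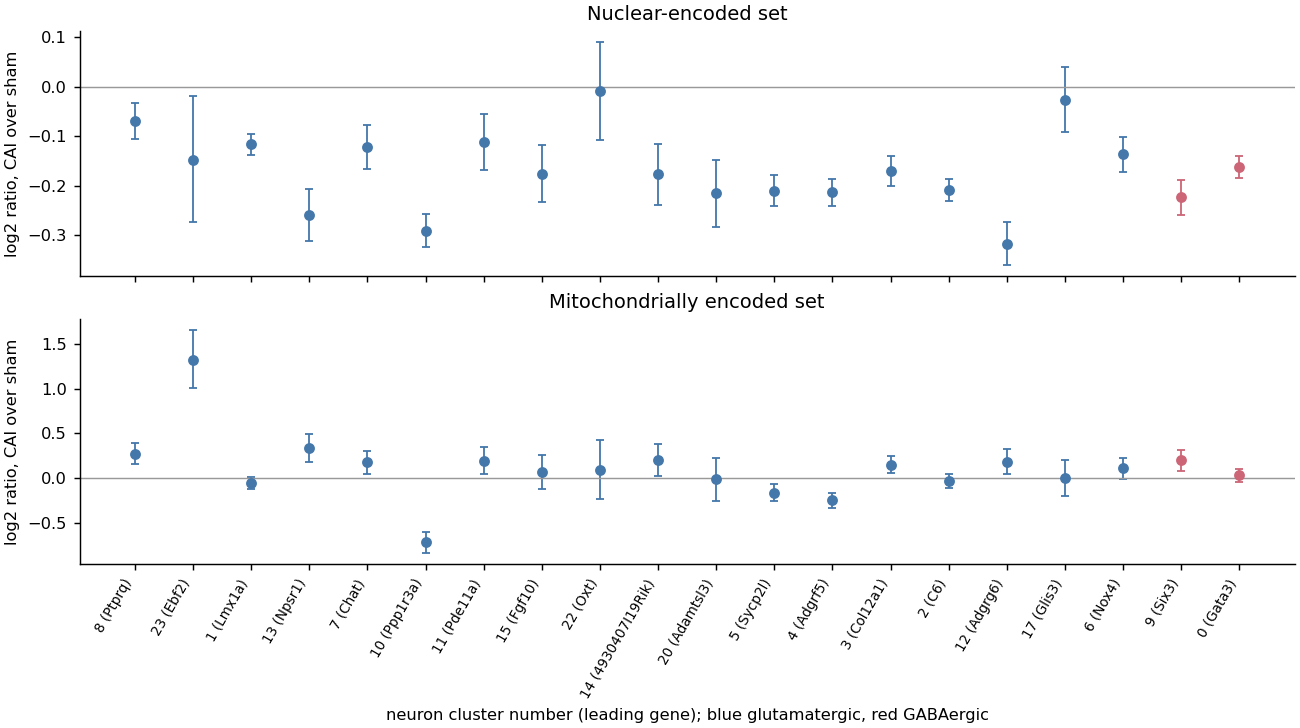
Log2 ratio of CAI over sham of the nuclear-encoded (top) and mitochondrially encoded set (bottom) in each neuron cluster of the classes, ordered by sham level within each class, with 95% counting intervals. The nuclear ratios lie between -0.32 and -0.01, and the mitochondrial ratios between -0.71 and 1.32.

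To place the members among other genes of the pathway, 4 lists were described with the same rule. Of 37 assembly factors for complexes I to V that the rule does not take, 36 passed in glutamatergic neurons, 7 lower and 0 higher, with a median of -0.08; Coa3, a complex IV assembly factor, was at -0.67 (-0.87 to -0.47) and Cox14 at -0.55 (-0.70 to -0.41). The carrier list held Cycs, cytochrome c, which brings electrons from complex III to complex IV, at -0.29 (-0.44 to -0.13), and Cyc1 at -0.22 (-0.32 to -0.12). Cyc1 encodes cytochrome c1, a subunit of complex III whose symbol the rule does not take, so the complex III counts above leave it out. Of 25 genes for mitochondrial DNA expression and biogenesis 1 was lower, Slirp, which stabilises mitochondrial messages, at -0.38 (-0.51 to -0.25), and 1 higher, Mgme1, at 0.30 (0.03 to 0.57). The coactivator Ppargc1a had 66.5 and 66.2 CPM and Nrf1 80.9 and 81.0. Of 13 genes of the tricarboxylic acid cycle 0 were lower and 0 higher, with a median of -0.04.

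In GABAergic neurons 8 assembly factors were lower and 1 higher of 36, 1 gene of the carrier list of 2 was lower, 2 biogenesis genes were lower and 2 higher of 25, and 1 cycle gene was lower of 13. In oligodendrocytes 10 were lower and 1 higher of 27 assembly factors, the 1 tested gene of the carrier list was lower, 4 biogenesis genes were lower and 5 higher of 20, and 1 cycle gene was lower of 12. In astrocytes 10 genes passed in each of the 3 larger lists, with 3 lower and 0 higher, 3 lower and 2 higher, and 1 lower and 2 higher in that order. These counts stand beside 12.3% lower and 14.4% higher of all genes in glutamatergic neurons, 13% and 16.6% in GABAergic neurons, 24.4% and 19.8% in oligodendrocytes and 25.3% and 27.7% in astrocytes. The medians of the cycle genes were -0.05, -0.16 and 0.04 in these classes, nearer to those of all genes than the members' were.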

How the data were processed

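Single-nucleus libraries were made from frozen thalamus with 10x Genomics 3′ chemistry after nuclei had been stained with propidium iodide and sorted. The authors deposited unnormalized UMI counts per gene and barcode, made with Cell Ranger 6.0.2 on GRCm38, and the submitters' notes name Seurat 4.0. Annotation release, intron counting and the use of strand are not given in the sources used here. As in the study, barcodes with over 2% mitochondrial UMIs, over 7500 genes or under 200 genes were removed. Nuclei were integrated and clustered with Seurat 5.3.0 (2000 variable genes without members, 30 components, Louvain resolution 0.5). Doublets were called with Scrublet in scanpy 1.11.5 and kept, except that clusters with over 50% doublets were set apart as mixed. Clusters were named from marker lists, with score limits set after the data were seen. Members and gene lists were chosen with earlier results of these data known.

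UMIs were summed per class and library and given as CPM. Medians over genes and Spearman's rho with span used ratios with 0.5 UMI added to each library. The medians by promoter letters, the single-gene ratios given and the counts of lower and higher genes had none added. Members named in the text were, in glutamatergic neurons, the 3 with the most UMIs per complex, the 4 lowest and 4 highest ratios, the mitochondrial genes and the isoform pairs. In other classes they were the 2 lowest and 2 highest. Ndufaf4 and the genes named from the other pathway lists, such as Coa3, Cox14, Slirp and Mgme1, fell outside this rule. No rule for naming them was fixed beforehand. Depth was 137850696 UMIs in sham and 180106314 in CAI. Each group was 1 library of 4 pooled mice, so no test was run. TMM factors were computed with edgeR 4.0.16. The ratio and interval code was tested on simulated data. Alternatives are given in the closing section. Python 3.11.15 and R 4.3.3 were used. Promoter sequences came from RefSeq on GRCm38.p6 and gene coordinates from the GRCm38 annotation.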

Additional observations from a re-analysis of the deposited data

Results flagged for a closer look

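The log2 ratio of CAI over sham of the mitochondrial set had opposite signs in different classes, with intervals on either side of 0. It was 0.080 in GABAergic neurons, 0.54 in oligodendrocytes and 0.63 in microglia, against -0.44 in astrocytes. The difference between classes was not tested, since there was 1 library per group, and the astrocyte value was -0.13 (-0.32 to 0.05) without the cluster of 100 CAI nuclei.

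Of the nuclei outside the classes, 3 groups had more of the mitochondrial set in CAI than in sham, with intervals that did not overlap. A neuron cluster kept out for markers of another class went from 151 CPM (135 to 168) to 323 (297 to 351), clusters of mixed nuclei from 225 (217 to 234) to 276 (270 to 283), and the barcodes removed by the filters from 879 (793 to 971) to 1060 (1001 to 1121). Of the last, 9 of 17 sham and 30 of 51 CAI barcodes had been removed for their mitochondrial share. That is the measure compared here, so nothing is read from the levels of the removed barcodes. Other such nuclei did not share this. Mural cells had 2412 and 822 CPM on 21 nuclei in each library, though other clusterings gave only 9 and 7 sham mural nuclei. The 3 unnamed clusters had 692 (588 to 810) and 628 CPM (559 to 704), but 173 of their 248 sham nuclei were in a cluster with 0 CAI nuclei and 245 of their 336 CAI nuclei in one with 1 sham nucleus. The cluster present in both, with 74 and 91 nuclei, had 582 (438 to 757) and 540 CPM (430 to 669).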

How the results depend on the processing

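No paired analysis was possible because sham and CAI had a single pooled library apiece, and no replicate could be left out. Of the values that answer a comparison, recomputed under the alternatives, 393 stayed within the counting interval or within 1.5 times the count, 47 moved further and 1, the nuclear set in microglia, went from an interval below 0 to 0.029 with TMM factors, which were -0.40 (log2, CAI over sham) in that class. The glutamatergic mitochondrial ratio without doublets and the astrocyte difference without 1 cluster, both near 0 otherwise (0.03 and 0.07), also changed sign, with their values below. TMM factors gave -0.19 in glutamatergic neurons. The cause of the other moves was not tested.

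Without a filter on the mitochondrial share, the share of member UMIs in oligodendrocytes was 38.3% and 52.9%. With a limit of 1% it was 32.9% and 44.4%, the mitochondrial ratio 0.36 and the nuclear minus mitochondrial difference -0.71, and the CAI share of microglia was 29.9% instead of 34.4%. Without called doublets the mitochondrial ratio of glutamatergic neurons was -0.011 and the difference -0.17. At resolution 1.0 the CAI share of GABAergic neurons was 10.1%. Without nuclei under 2000 UMIs the oligodendrocyte ratios were -0.29 (nuclear) and 0.65 (mitochondrial). In nuclei thinned to 2000 UMIs the mitochondrial ratio was 0.15 in glutamatergic neurons, 0.63 in oligodendrocytes and 1.34 in microglia, where it rests on 1 sham nucleus with 1 mitochondrial UMI and nothing is read from it, and the nuclear ratio of astrocytes -0.26.

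With a minimum of 20 UMIs, 44 nuclear genes were lower and 10 higher of 68 in astrocytes, at a median of -0.48 (29.7% and 30.4% of all genes). With 200 UMIs, 0 of 87 were higher in glutamatergic neurons (9.25%), 14 lower and 0 higher of 19 in oligodendrocytes (17.2% and 16.1%), and 0 and 0 of only 4 in astrocytes (17.7% and 22.7%), against 19 and 6 of 36. With a size of 0.5, 14 were lower in glutamatergic neurons (3.11%), 17 lower and 0 higher in GABAergic neurons (3.76% and 5.87%), 26 and 1 in oligodendrocytes (8.33% and 6.65%) and 8 and 3 in astrocytes (9.37% and 13.5%). Without assembly factors the nuclear ratio of glutamatergic neurons was -0.18. The mean of single-nucleus CPM gave glutamatergic neurons a mitochondrial ratio of 0.13, a difference of -0.30 and shares of 9.23% and 11.1%, and GABAergic neurons shares of 8.81% and 10.7%. The mean over clusters gave glutamatergic neurons 0.11.

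The last 3 alternatives were chosen after seeing the data. Leaving out barcodes that occur in both libraries moved none of these values. With the kept-out clusters included, glutamatergic neurons had ratios of -0.18 (nuclear) and 0.085 (mitochondrial), a difference of -0.27 and a CAI share of 10.3%, and GABAergic neurons a nuclear ratio of -0.24 and a CAI share of 10.2%. Without the astrocyte cluster found nearly only in CAI, the mitochondrial ratio of astrocytes was -0.13, the difference -0.14 and the CAI share 21.3%. Depth limits the astrocytes, precursors and microglia, where 36, 5 and 0 nuclear members reached the minimum.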

Other observations

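Mural cells, with 21 nuclei in each library, had 4731 CPM of the nuclear set in sham and 3110 in CAI, a log2 ratio of -0.60 (-1.01 to -0.20), and 2412 and 822 CPM of the mitochondrial set, at -1.55 (-2.27 to -0.86). At resolution 1.0 the mural class held 9 sham and 19 CAI nuclei, and without integration 7 and 21. Which sham nuclei count as mural thus depends on the clustering, and so may these values. A cluster of 173 sham nuclei and 0 CAI nuclei, led by Rps3, Rpl8 and Tpt1 and left unnamed, had 4855 CPM of the nuclear and 763 of the mitochondrial set. The 3 neuron clusters kept out for few sham nuclei had 1641 CPM (1615 to 1667) of the nuclear and 300 (288 to 311) of the mitochondrial set in CAI.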
